A study of Mus musculus with 16 samples.

Results

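The 10 genes described here make up the core of the Nrf2 pathway and its best known targets. They are Nfe2l2, which encodes the transcription factor Nrf2, its repressor Keap1, and the targets Nqo1, Hmox1, Gclc, Gclm, Txnrd1, Srxn1, G6pdx and Osgin1. They were chosen by name, as the rows of the gene count table that carry these symbols, and all 10 of 10 were found among the 57186 genes of the table. All 10 also had at least 100 counts over all libraries, the minimum that 25408 genes reached. Their counts were measured by RNA-seq in the kidneys of 16 male mice, with 4 libraries in each of 4 labelled groups. Every mouse carried Elmo1H/H, a homozygous allele that raises the expression of Elmo1, so no group had a normal Elmo1 level. The groups were non-diabetic untreated (ND_C) and non-diabetic given B12 (ND_B12), both Ins2+/+, and diabetic untreated (D_C) and diabetic given B12 (D_B12), both Ins2Akita/+. The Akita allele encodes a misfolded proinsulin that damages pancreatic beta cells, so the kidney meets it as hyperglycemia. Vitamin B12 was given in drinking water at 10 mg/kg per day from 8 weeks of age, and the labels put its duration at 16 weeks where the methods have 8 weeks, ending at 16 weeks of age.

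Nrf2 is held at a low level by Keap1, which hands it to a Cul3 ubiquitin ligase for degradation. When oxidants or electrophiles modify cysteines of Keap1, Nrf2 escapes, pairs with a small Maf protein and binds antioxidant response elements near genes for glutathione synthesis, thioredoxin recycling, NADPH supply, quinone reduction and haem breakdown. In the kidney the pathway is best known for the defence of tubule cells against oxidants and toxins. Because Nrf2 is set mainly at the protein level, which was not measured here, the level of Nfe2l2 RNA is not a measure of its activity.

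The core of the antioxidant response element, TGACNNNGC, was searched on both strands from 1000 bases before to 100 bases after the start of each gene's canonical transcript (GENCODE vM39, GRCm39). It occurred in 4 of the 10 members, Gclm, Nfe2l2, Srxn1 and Txnrd1, and in 32.1% of the 21770 protein-coding genes scanned in the same way, so the members' share was near that of genes at large. The 5 occurrences are printed as matches to these letters, with the core in capitals and 10 bases on each side. They are read 5′ to 3′ on the minus strand of the chromosome. A match is a description of the letters and not a site of binding, and no match says only that these letters are not in this window. The positions are chr3:122039062-122039090 for Gclm, chr2:75535229-75535257 for Nfe2l2, chr2:151947462-151947490 for Srxn1, and chr10:82694632-82694660 (first) and chr10:82694938-82694966 (second) for Txnrd1. The canonical transcript of Txnrd1, Txnrd1-201, held 15.5% of the gene's count and starts inside the gene, whose span begins at chr10:82669785. Starts other than that of the canonical transcript were not searched for any gene. The canonical transcript held 30.8% of the count for Osgin1 and 37.5% for Keap1, which both had no match.
Gclm, core 50 bases before the start: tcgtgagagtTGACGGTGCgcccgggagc
Nfe2l2, core 258 bases before the start: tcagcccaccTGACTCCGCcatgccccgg
Srxn1, core 32 bases after the start: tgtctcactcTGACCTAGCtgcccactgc
Txnrd1, first, core 367 bases before the start: gcactggctgTGACCCTGCcaaatagttg
Txnrd1, second, core 61 bases before the start: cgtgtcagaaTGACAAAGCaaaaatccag

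Total estimated counts ran from 65271308 to 91771136 per library, and each D_C total lay above each ND_C total. Each library was set beside published group means for 158 genes, and 5 libraries fell into the group of their label and 11 into another. The closest set for the published D_C means was the 4 libraries labelled D_B12, and the closest set for the published D_B12 means was ND_B12 4 with D_C 2, 3 and 4. By the same match D_C 1 fell with the non-diabetic B12-treated kidneys, so for D_C 1 and ND_B12 4 the diabetes label itself differed. The closest sets differed from the published means by a median absolute log2 difference of 0.00012 to 0.00020, and the labelled groups by 0.037 to 0.26. The match places none of the D_C or D_B12 libraries in the group of its label. The direction of every value for B12 in diabetic kidneys, and of the interaction, therefore rests on the labels being right. So do the treatments named in the comparisons within untreated, B12-treated and non-diabetic kidneys, and in B12 averaged over genotypes. All groups and directions below are those of the labels, and for members with an unadjusted p below 0.05, and for edgeR's calls in the wider pathway, values without D_C 1 and ND_B12 4 are also given. The dates in the library names follow the groups, and no date is shared by D_C and D_B12, by ND_C and D_C or by ND_B12 and D_B12, so date and group cannot be told apart in these comparisons and no value within a date can be given. Markers of kidney tubules were abundant in every library, while the skeletal muscle markers Acta1, Ckm and Myh4 and the adrenal markers Cyp11a1 and Cyp11b1 stayed under 100 counts. The adipocyte markers Adipoq, Plin1 and Cidec varied widely within groups, summing to 10.9 to 4190 normalized counts in ND_C and 17.0 to 4185 in D_B12. Over all libraries the adrenal marker Star had 286 to 544, and the hepatocyte markers Alb, Apoa1 and Serpina1a summed to 2987 to 6397. The part of these other tissues in the members' values was not tested. Values below are normalized counts (estimated counts divided by a size factor per library) unless stated, and log2 fold changes, standard errors (SE) and adjusted p-values come from edgeR's two-sided quasi-likelihood test over all 25408 genes. Nothing in the labels says whether counting used strand, and 8 of the 10 members overlap another annotated gene, all but Nqo1 and Hmox1, so reads of those neighbours could enter their counts.

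Levels per kilobase of transcript placed the glutathione and thioredoxin enzymes at the top. Gclc, the catalytic subunit of glutamate-cysteine ligase, had 5429 ± 923 normalized counts per kilobase (SD, n = 16) and Gclm, its modifier subunit, 4241 ± 327. Txnrd1, cytosolic thioredoxin reductase, followed with 3921 ± 547 per kilobase and differed from Gclm by less than its own SD. Nfe2l2 (1830 ± 159), Osgin1 (1665 ± 553), Hmox1 (1593 ± 659) and Nqo1 (1566 ± 339) formed a middle set whose neighbours differed by less than the larger SD. Keap1 (792 ± 33.1), Srxn1 (608 ± 83.4) and G6pdx (430 ± 43.5) were lowest, and each differed from the next by more than the larger SD. Relative spread over the 16 libraries was smallest for Keap1, with a coefficient of variation of 3.87%, and largest for Hmox1, with 41.4%, followed by Osgin1 with 32.9%.

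The clearest difference among the members was in Nqo1, the quinone reductase that serves as a standard readout of Nrf2, which rose 1.34-fold in diabetic kidneys averaged over both treatments. Txnrd1, Srxn1 and G6pdx had positive values in the same comparison and did not pass the test with all 16 libraries. All 3 passed it once D_C 1 and ND_B12 4 were left out, where 9.82% of all genes did. With 1 library left out, each of the 3 passed in 1 of 16 fits, that without D_C 1. Their lowest log2 fold changes in those fits were 0.17 for Txnrd1, 0.16 for Srxn1 and 0.13 for G6pdx. The glutathione ligase genes Gclc and Gclm, and the regulators Nfe2l2 and Keap1, passed neither with all 16 libraries nor without D_C 1 and ND_B12 4. No member passed the test for B12 in either genotype.

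Nqo1 (chr8:108113835-108129934, minus strand) had 3636, 2912, 2954 and 3467 normalized counts in ND_C 1 to 4 and 3509, 4004, 3527 and 4609 in ND_B12 1 to 4. It had 3215, 5208, 5173 and 5507 in D_C 1 to 4 and 4587, 5316, 5210 and 4107 in D_B12 1 to 4. Of the 8 diabetic libraries 5 lay above every non-diabetic one, D_C 1 lay within the ND_C range, and ND_B12 4 was the highest of the non-diabetic libraries. The log2 fold change averaged over treatments was 0.43 (SE 0.10, adjusted p = 0.0379), and DESeq2 gave an adjusted p of 0.0025. Without D_C 1 and ND_B12 4 it was 0.55 (SE 0.07, adjusted p = 0.00043). With any 1 library left out, the adjusted p of Nqo1 ran from 0.0028 (without D_C 1) to 0.0824 and passed 0.05 in 5 of 16 fits, those without ND_C 1, ND_C 4, ND_B12 4, D_C 1 or D_B12 4. The call was also lost with the label date as covariate (0.19, adjusted p = 0.802), with the replicate number as a block (adjusted p = 0.059) and with no filter beyond 1 count (adjusted p = 0.0651).

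**Figure D1:**
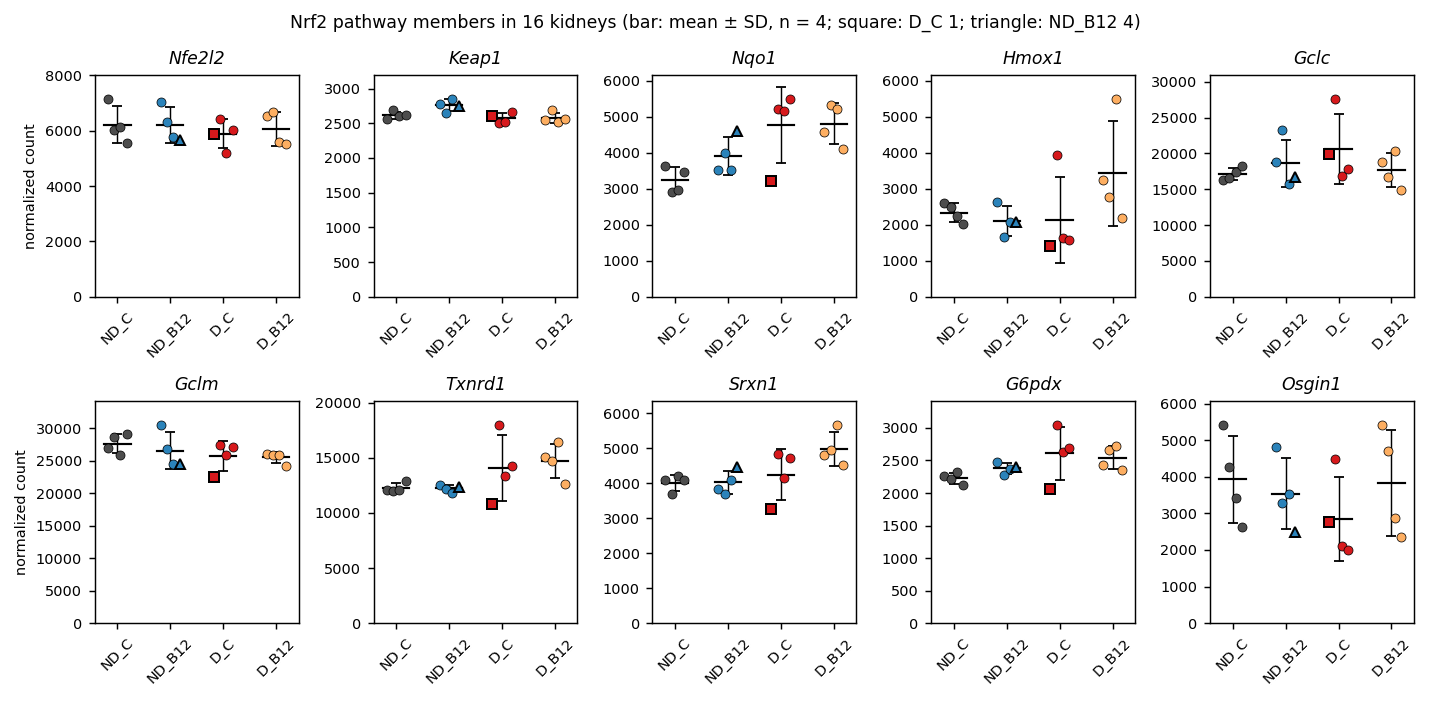
Normalized counts of the 10 members (y axes, each from 0) in the 16 libraries by labelled group (x axes), with points in replicate order, bars for the mean ± SD of 4 libraries, a square for D_C 1 and a triangle for ND_B12 4. For Nqo1, Txnrd1, Srxn1 and G6pdx, D_C 1 is the lowest of the diabetic libraries, and for Hmox1 a single library, D_C 2 at 3941, stands above the other D_C libraries.

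Txnrd1 (chr10:82669785-82733546, plus strand) returns oxidized thioredoxin to its reduced form with NADPH. It had 12132, 11958, 12108 and 12904 normalized counts in ND_C and 12554, 12184, 11805 and 12386 in ND_B12, a narrow band over 8 mice. The diabetic libraries were spread wider, with 10773, 18020, 13404 and 14233 in D_C and 15073, 14706, 16467 and 12638 in D_B12. Of these, 6 exceeded all non-diabetic libraries and D_C 1 was below all of them. Averaged over treatments, its log2 fold change was 0.23 (SE 0.08, adjusted p = 0.122), and 0.29 (SE 0.07, adjusted p = 0.0172) without D_C 1 and ND_B12 4.

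Srxn1 (chr2:151947436-151957687, plus strand) encodes sulfiredoxin, which repairs over-oxidized peroxiredoxins. Its normalized counts were 4090, 3682, 4190 and 4089 in ND_C, 3829, 3701, 4089 and 4463 in ND_B12, 3261, 4844, 4153 and 4712 in D_C, and 4815, 4939, 5669 and 4504 in D_B12. The pattern was like that of Txnrd1, with 6 diabetic libraries above every non-diabetic one and D_C 1 below them all. Diabetic kidneys differed from non-diabetic ones, averaged over treatments, by 0.19 on the log2 scale (SE 0.08, adjusted p = 0.169), and by 0.28 (SE 0.06, adjusted p = 0.0084) without D_C 1 and ND_B12 4.

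G6pdx (chrX:73449857-73472819, minus strand) encodes glucose-6-phosphate dehydrogenase, the entry enzyme of the pentose phosphate pathway and a source of NADPH. It had 2260, 2210, 2319 and 2117 normalized counts in ND_C, 2472, 2275, 2363 and 2400 in ND_B12, 2068, 3050, 2632 and 2697 in D_C, and 2423, 2660, 2730 and 2359 in D_B12. D_C 1 was again the lowest library of all 16, and 5 diabetic libraries were above every non-diabetic one. The log2 fold change averaged over treatments was 0.16 (SE 0.06, adjusted p = 0.167), and 0.21 (SE 0.05, adjusted p = 0.0139) without those 2 libraries.

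Over the members, 1 of 10 was called for diabetes averaged over treatments at an adjusted p below 0.05, against 3.02% of all genes tested, and 4 of 10 had an unadjusted p below 0.05, against 19.4%. DESeq2 also called 1 of 10, against 7.23% of all genes. Without D_C 1 and ND_B12 4, 4 of 10 were called, all higher, against 9.82% of all genes. The median log2 fold change of the members was 0.13, where that of all genes tested was 0.01. In the same comparison 1 of 2 collecting duct markers was called higher, and 1 of 5 proximal tubule and 2 of 8 macrophage markers were called lower, and their part in the members' values was not tested.

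The remaining members stayed near their non-diabetic level or varied within groups more than between them. For diabetes averaged over treatments the log2 fold change was 0.28 (SE 0.22) for Hmox1, 0.10 (SE 0.10) for Gclc, -0.08 (SE 0.05) for Gclm, -0.06 (SE 0.03) for Keap1, -0.06 (SE 0.07) for Nfe2l2 and -0.17 (SE 0.21) for Osgin1. The adjusted p-values of these 6 ran from 0.272 for Keap1 to 0.714 for Osgin1. Keap1 (chr9:21141026-21150679, minus strand) spanned 2564 to 2856 over the 8 non-diabetic libraries and 2499 to 2686 over the 8 diabetic ones, which overlap, although 5 diabetic libraries were below every non-diabetic one. Nfe2l2 (chr2:75504739-75534985, minus strand) spanned 5561 to 7164 and 5187 to 6678.

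In untreated kidneys, D_C was compared with ND_C, and these groups also differ in label date and in total counts. In edgeR 0 of 10 members were called at an adjusted p below 0.05, against 1.66% of all genes, and 2 of 10, Nqo1 and G6pdx, had an unadjusted p below 0.05, against 18.6%. DESeq2 called Nqo1 alone (adjusted p = 0.0066), where it called 6.44% of all genes. Nqo1 had a log2 fold change of 0.56 (SE 0.15, adjusted p = 0.0616) and G6pdx one of 0.23 (SE 0.09, adjusted p = 0.176). Without D_C 1 and ND_B12 4 both were called, Nqo1 at 0.71 (SE 0.10, adjusted p = 0.0019) and G6pdx at 0.33 (SE 0.07, adjusted p = 0.0132), against 8.21% of all genes. With 1 library left out, Nqo1 was called in 2 of 16 fits, with values from 0.48 to 0.70. G6pdx was called in 1 of 16, with values from 0.14 to 0.32.

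Of the other members in untreated kidneys, the log2 fold change was 0.27 (SE 0.15) for Gclc, 0.20 (SE 0.11) for Txnrd1, 0.08 (SE 0.11) for Srxn1, -0.03 (SE 0.04) for Keap1, -0.08 (SE 0.09) for Nfe2l2, -0.10 (SE 0.08) for Gclm, -0.13 (SE 0.31) for Hmox1 and -0.47 (SE 0.30) for Osgin1. With 1 library left out, the value ran from 0.06 to 0.30 for Txnrd1 and from 0.01 to 0.18 for Srxn1. The 4 D_C libraries overlapped the ND_C libraries for each of the 10 members, where 9.44% of all genes had groups that did not overlap. The summed level of the collecting duct markers Aqp2 and Atp6v1g3 was 5768 to 9126 in ND_C and 10929 to 28654 in D_C, and 1 of the 2, Aqp2, was called higher, while Atp6v1g3 had a mean of 1475 in ND_C and 1588 in D_C. The 5 proximal tubule markers summed to 939564 to 1018040 in ND_C and 829838 to 1040900 in D_C, which overlap, with 0 of 5 called. Their part in the members' values was not tested, and in whole kidney fewer cells of a type cannot be told apart from less RNA per cell.

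In B12-treated kidneys, D_B12 was compared with ND_B12, and no member passed the test. Every D_B12 library exceeded every ND_B12 library for Txnrd1 and for Srxn1, so that 2 of 10 members had groups without overlap, against 11.7% of all genes. The log2 fold change was 0.31 (SE 0.11, adjusted p = 0.154) for Srxn1 and 0.26 (SE 0.11, adjusted p = 0.248) for Txnrd1. Hmox1 had the largest value of the members at 0.70 (SE 0.31, adjusted p = 0.256), which was 0.37 without D_B12 3 and 0.70 without D_C 1 and ND_B12 4. Nqo1 had 0.29 (SE 0.15, adjusted p = 0.323), and Keap1 had -0.10 (SE 0.04, adjusted p = 0.255).

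Neither edgeR nor DESeq2 called any of the 10 members in B12-treated kidneys, where edgeR called 0.823% of all genes and DESeq2 4.68%. At an unadjusted p below 0.05 edgeR counted 4 of 10 members, against 17.0% of all genes, which were Srxn1, Txnrd1 and Hmox1 with higher and Keap1 with lower values in D_B12. Without D_C 1 and ND_B12 4, Srxn1 was called at 0.36 (SE 0.08, adjusted p = 0.0303), against 2.69% of all genes, while Txnrd1 had 0.27 (adjusted p = 0.157) and Keap1 -0.10 (adjusted p = 0.299). With 1 library left out, Srxn1 was called in 0 of 16 fits. The 8 macrophage markers summed to 5456 to 7864 in ND_B12 and to 5132 to 5775 in D_B12, and 8 of 8 had negative log2 fold changes with 0 called. The 5 proximal tubule markers summed to 968807 to 1074260 in ND_B12 and 877545 to 916021 in D_B12, without overlap, with 0 of 5 called, and 1 of 3 hepatocyte markers was called lower. The part of these markers in the members' values was not tested.

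**Figure D2:**
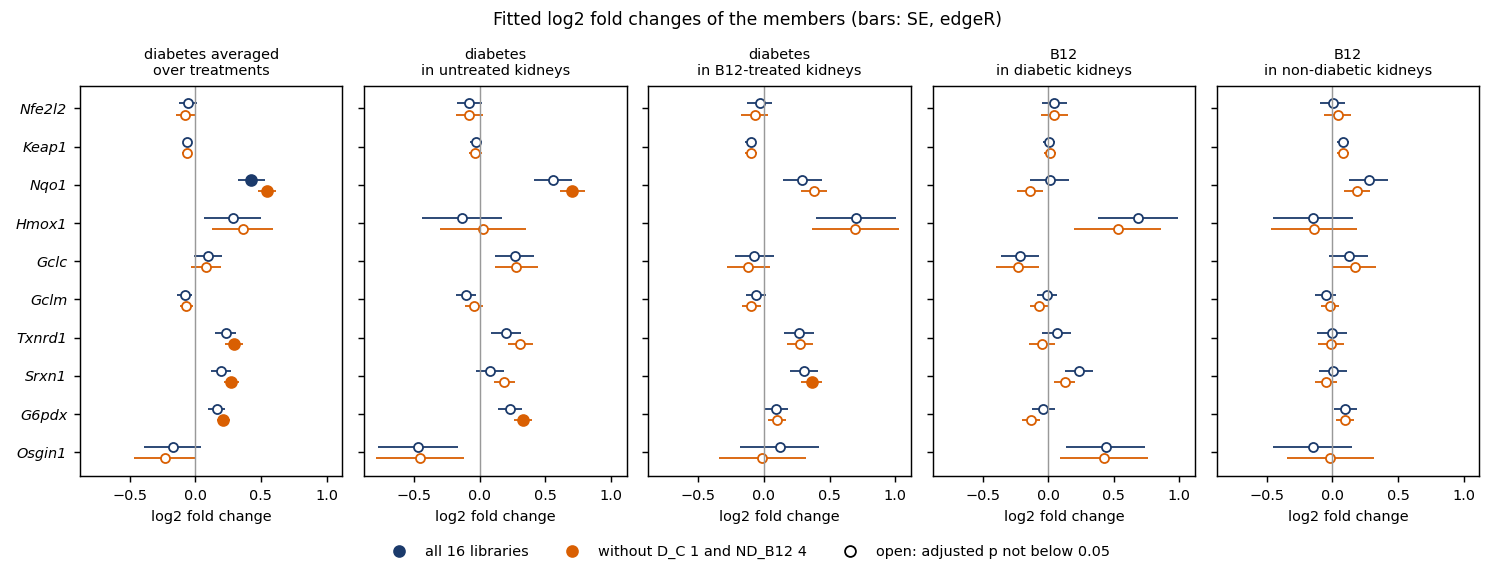
Log2 fold changes (x axes) of the 10 members in 5 comparisons, from edgeR with all 16 libraries (blue) and without D_C 1 and ND_B12 4 (orange), with bars for the SE and filled points for an adjusted p below 0.05. With all libraries the single filled point is Nqo1 for diabetes averaged over treatments at 0.43, and without the 2 libraries Nqo1, Txnrd1, Srxn1 and G6pdx are filled in that panel.

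In diabetic kidneys, D_B12 was compared with D_C, and these groups share no label date. Of the members, 0 of 10 were called by edgeR or DESeq2, where edgeR called 0% of all genes and DESeq2 2.64%. At an unadjusted p below 0.05 there were 2 of 10, Hmox1 and Srxn1, against 13.6% of all genes. Hmox1 (chr8:75820241-75827217, plus strand), the haem oxygenase that many stresses induce, had 1402, 3941, 1641 and 1569 normalized counts in D_C and 3240, 2780, 5512 and 2183 in D_B12. In the non-diabetic groups it had 2598, 2497, 2259 and 2020 in ND_C and 2645, 1650, 2067 and 2068 in ND_B12. D_C 2 was far above the other D_C libraries and within the D_B12 range, so the groups overlapped. Between the 2 groups Hmox1 differed by 0.69 on the log2 scale (SE 0.31, adjusted p = 0.338) and Srxn1 by 0.23 (SE 0.11, adjusted p = 0.347). With any 1 library left out, the Hmox1 value ran from 0.36 (without D_B12 3) to 1.17 (without D_C 2, adjusted p = 0.0561). Hmox1 differed by 0.53 and Srxn1 by 0.13 without D_C 1 and ND_B12 4. The 8 macrophage markers summed to 6877 to 7539 in D_C and 5132 to 5775 in D_B12, without overlap. The 2 loop of Henle markers summed to 223751 to 304558 in D_C and 166474 to 197866 in D_B12, also without overlap, and both had negative log2 fold changes. None of the macrophage or loop of Henle markers was called, and their part in the Hmox1 value was not tested.

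Osgin1 (chr8:120152470-120173000, plus strand), an oxidative stress gene linked to cell death, also varied within groups. It had 2756, 4497, 2107 and 2009 normalized counts in D_C and 5428, 4696, 2869 and 2369 in D_B12, and 5411, 4265, 3434 and 2626 in ND_C and 4827, 3278, 3539 and 2489 in ND_B12. Each group covered much of the range of the others, and D_B12 differed from D_C by 0.44 on the log2 scale (SE 0.30, adjusted p = 0.571). With the date in the label as a covariate, the value was 1.68 (SE 0.30, adjusted p = 0.0254), and since no date is shared by D_C and D_B12 that fit takes their whole difference in date from a straight line. For each of the 10 members D_B12 and D_C overlapped, where 6.58% of all genes had groups that did not.

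In non-diabetic kidneys the members differed little between ND_B12 and ND_C relative to their SEs. In edgeR 0 of 10 members were called, against 0% of all genes, DESeq2 called 0 of 10, against 0.0236%, and 0 of 10 had an unadjusted p below 0.05, against 7.62%. The largest log2 fold change was that of Nqo1 at 0.28 (SE 0.15, adjusted p = 0.694), and Keap1 had 0.08 (SE 0.04, adjusted p = 0.700). The other 8 lay between -0.15 and 0.12, and no member had groups without overlap, against 4.81% of all genes. Txnrd1 and Nfe2l2 differed by less than 0.01 on the log2 scale between ND_B12 and ND_C.

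Averaged over genotypes, B12 gave 0 calls of 10 in edgeR and in DESeq2, against 0% of all genes in edgeR and 0.0236% in DESeq2, and 0 of 10 at an unadjusted p below 0.05, against 5.20%. The values lay between -0.05 and 0.27, the highest being Hmox1. The interaction, which tests whether the difference with B12 was another one in diabetic than in non-diabetic kidneys, also gave 0 calls of 10 in edgeR and in DESeq2, against 0% of all genes in edgeR and 3.71% in DESeq2, and 0 of 10 at an unadjusted p below 0.05, against 16.1%. Hmox1 had the largest interaction value at 0.83 (SE 0.43, adjusted p = 0.364), followed by Osgin1 at 0.59 (SE 0.43, adjusted p = 0.544), while Gclc had -0.34 (SE 0.21, adjusted p = 0.456) and Nqo1 had -0.27 (SE 0.21, adjusted p = 0.575).

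The 2 genes of glutamate-cysteine ligase, the rate-limiting step of glutathione synthesis, did not follow Nqo1. Gclc (chr9:77661797-77701770, plus strand) had 15724 to 23203 normalized counts over the non-diabetic libraries and 14918 to 27655 over the diabetic ones, with D_C 2 highest. Gclm (chr3:122039126-122065061, plus strand) had 24446 to 30559 and 22492 to 27359. Both ranges overlapped, and for Gclm the lowest library was again D_C 1.

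For each member, the most alike genes were the 2 of all tested genes with the highest Pearson correlation of log2 CPM (counts scaled to the library total) over the 16 libraries. These values describe a pattern that groups, dates and depth share in the same libraries, and carry no test. For Nqo1 they were Aldh1a1 (r = 0.961) and Car15 (0.947), for Txnrd1 Glud-ps (0.935) and Slc38a3 (0.935), for Srxn1 Tmem52 (0.936) and Jpt1 (0.930), and for G6pdx Gna13 (0.918) and Dhx32 (0.916). For Nfe2l2 they were the heat shock genes Hsph1 (0.888) and Bag3 (0.875), and for Keap1 Slc35c1 (0.842) and Aqp11 (0.824). Hmox1 was most like Gm14057 (0.922) and Tatdn1 (0.889), Osgin1 most like Camsap1 (0.950) and Bdp1 (0.914), Gclc most like Trip10 (0.852) and AU021092 (0.802), and Gclm most like Cd36 (0.874) and Frmpd3 (0.849). No member was among the 2 most like genes of another member. Between members the correlations ran from -0.466 (Keap1 with Txnrd1) to 0.865 (Txnrd1 with G6pdx). The next highest were Txnrd1 with Srxn1 (0.841), Nfe2l2 with Osgin1 (0.835) and Nqo1 with G6pdx (0.817).

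A wider list of 39 genes of the pathway held 11 partners and regulators of Nrf2 and 28 further targets, of which 38 had at least 100 counts and Gpx2 did not. For diabetes averaged over treatments edgeR called 4 of 38, 2 higher and 2 lower, against 3.02% of all genes, and 13 had an unadjusted p below 0.05, 9 of them higher, against 19.4%. DESeq2 called 7 of 38, 4 higher and 3 lower, against 7.23% of all genes. The median log2 fold change was 0.05, where that of all genes was 0.01. Without D_C 1 and ND_B12 4, 13 of 38 were called, 11 of them higher, against 9.82% of all genes, among them the glutathione transferases Gstm1 and Gstp1, the pentose phosphate genes Pgd and Tkt, and the exporters Abcc1, Abcc2 and Abcc4.

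Ephx1, the microsomal epoxide hydrolase, was called higher in diabetic kidneys averaged over treatments and in untreated ones. Its normalized counts were 2370, 1725, 1972 and 2617 in ND_C, 2109, 3004, 2600 and 4956 in ND_B12, 3286, 6783, 5027 and 5128 in D_C, and 4176, 3842, 5567 and 3282 in D_B12. All D_C libraries exceeded all ND_C libraries, and ND_B12 4 lay among the diabetic libraries. The log2 fold change was 0.81 (SE 0.18, adjusted p = 0.0266) averaged over treatments and 1.22 (SE 0.25, adjusted p = 0.0349) in untreated kidneys, and without D_C 1 and ND_B12 4 it was 1.05 (adjusted p = 0.00041) and 1.38 (adjusted p = 0.0015). Cbr3, a carbonyl reductase of low count here (58 to 113 in the non-diabetic and 73 to 241 in the diabetic libraries), rose as well at 0.82 (SE 0.20, adjusted p = 0.0389) averaged over treatments, and was chosen outside the naming rule because it was called. Its value was 0.98 (adjusted p = 0.0061) without D_C 1 and ND_B12 4. In B12-treated kidneys neither gene was called. D_B12 overlapped ND_B12 for Ephx1 (3282 to 5567 and 2109 to 4956) and for Cbr3 (73 to 176 and 68 to 113). Without D_C 1 and ND_B12 4 the edgeR values there were 0.71 (adjusted p = 0.0633) for Ephx1 and 0.66 (adjusted p = 0.219) for Cbr3. The averaged call held in 10 of 16 fits with 1 library left out for Ephx1 and in 4 of 16 for Cbr3, and with the label date as covariate the adjusted p was 0.588 and 0.405.

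Ftl1, the ferritin light chain, and Me1, the cytosolic malic enzyme that makes NADPH, fell. Ftl1 had 78252, 81332, 97079 and 82468 normalized counts in ND_C and 62510, 66642, 72043 and 56100 in D_C, without overlap. It spanned 73314 to 84722 in ND_B12 and 73183 to 73401 in D_B12, which overlap. The log2 fold change of Ftl1 was -0.40 (SE 0.08, adjusted p = 0.0349) in untreated kidneys and -0.26 (SE 0.06, adjusted p = 0.0286) averaged over treatments. In B12-treated kidneys it was -0.09 (adjusted p = 0.627) in edgeR without D_C 1 and ND_B12 4. Ftl1 has processed copies in the mouse genome, so its count is uncertain. Me1 had 38003, 43837, 42334 and 42639 in ND_C, 43998, 39737, 38470 and 34776 in ND_B12, 33917, 32027, 36886 and 36121 in D_C, and 34177, 35120, 32091 and 35052 in D_B12, and 7 of the 8 non-diabetic libraries exceeded every diabetic one. Its log2 fold change averaged over treatments was -0.23 (SE 0.05, adjusted p = 0.0266). The averaged values without D_C 1 and ND_B12 4 were -0.24 (adjusted p = 0.0263) for Ftl1 and -0.25 (adjusted p = 0.0056) for Me1, and that of Ftl1 in untreated kidneys was -0.38 (adjusted p = 0.0189). With 1 library left out the averaged call held in 11 of 16 fits for Ftl1 and 8 of 16 for Me1, and with the label date as covariate in neither.

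**Figure D3:**
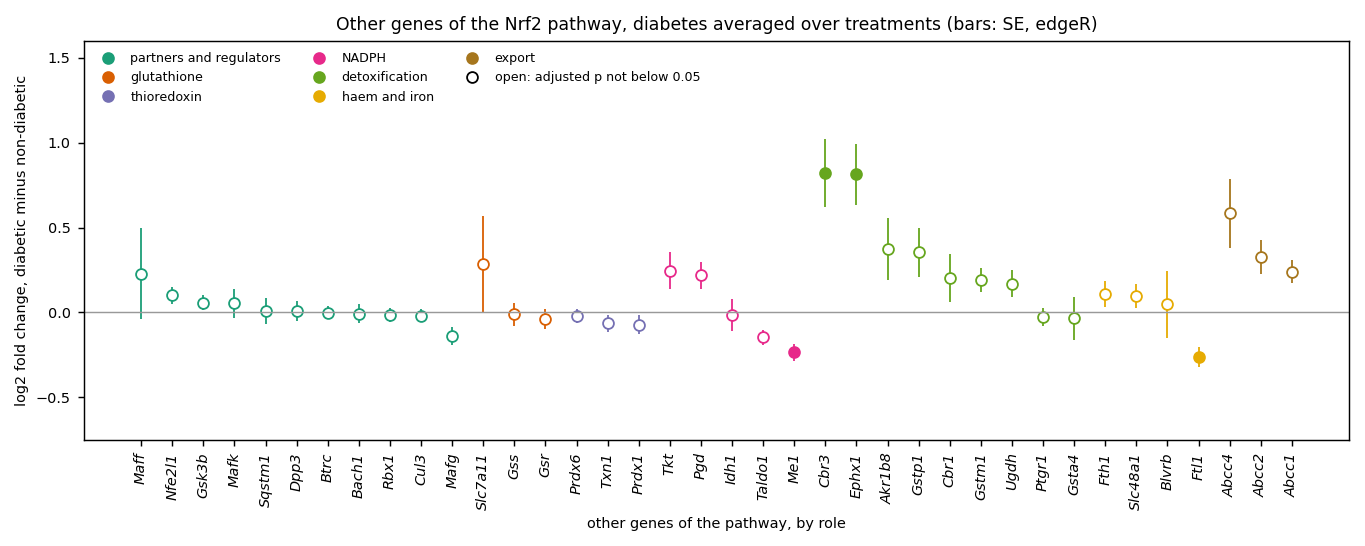
Log2 fold change of diabetic against non-diabetic kidneys averaged over treatments (y axis) for the 38 other genes of the pathway that were tested, ordered by role (x axis, colours), with bars for the SE and filled points for an adjusted p below 0.05. The 4 filled points are Cbr3 at 0.82 and Ephx1 at 0.81 above 0, and Me1 at -0.23 and Ftl1 at -0.26 below it, while none of the partners and regulators is filled.

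In untreated kidneys edgeR called 3 of the 38, against 1.66% of all genes, Ephx1 and Ftl1 as above and Abcc1, an exporter of glutathione conjugates, at 0.40 (SE 0.10, adjusted p = 0.0492). DESeq2 called 7 of the 38 there, 5 higher and 2 lower, against 6.44% of all genes. Abcc1 had 1762 to 2020 normalized counts in ND_C and 2119 to 2814 in D_C, and its value without D_C 1 and ND_B12 4 was 0.48 (adjusted p = 0.0092), while the call held in 4 of 16 fits with 1 library left out. In B12-treated kidneys edgeR called 0 of 38, against 0.823% of all genes, and DESeq2 called 1, Ptgr1, against 4.68%, and 3 had an unadjusted p below 0.05, against 17.0%. The 3 smallest p-values were those of Ptgr1 at -0.28 (SE 0.08, adjusted p = 0.0851), Me1 at -0.20 (SE 0.07, adjusted p = 0.159) and Taldo1 at -0.17 (SE 0.06, adjusted p = 0.165).

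For B12 in diabetic kidneys edgeR and DESeq2 called 0 of the 38, against 0% and 2.64% of all genes, and 5 had an unadjusted p below 0.05, against 13.6%, with Ptgr1 at -0.25 (SE 0.08, adjusted p = 0.176), Abcc1 at -0.27 (SE 0.10, adjusted p = 0.231) and Nfe2l1, a relative of Nfe2l2, at -0.16 (SE 0.07, adjusted p = 0.311) first. For B12 in non-diabetic kidneys 0 were called by either tool, against 0% and 0.0236% of all genes, and 3 had an unadjusted p below 0.05, against 7.62%, Ptgr1 at 0.27 (SE 0.08, adjusted p = 0.570), Abcc4 at 0.66 (SE 0.29, adjusted p = 0.637) and Ephx1 at 0.55 (SE 0.25, adjusted p = 0.646). For B12 averaged over genotypes 0 were called by either tool, against 0% and 0.0236% of all genes, and 0 had an unadjusted p below 0.05 in edgeR, against 5.20%, the first being Akr1b8 at -0.33 (SE 0.18), Abcc1 at -0.11 (SE 0.07) and Abcc4 at 0.30 (SE 0.20).

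Ptgr1, a reductase of prostaglandins and alkenals, had the smallest interaction p of the list. Its normalized counts were 689, 677, 769 and 683 in ND_C, 863, 841, 829 and 848 in ND_B12, 785, 836, 822 and 869 in D_C, and 633, 803, 655 and 694 in D_B12. It was thus higher with B12 in every non-diabetic library, and lower with B12 in 3 of 4 diabetic ones than in any untreated diabetic one. The interaction was -0.52 (SE 0.11, adjusted p = 0.0575) in edgeR, where 0 of 38 were called, against 0% of all genes, and 6 had an unadjusted p below 0.05, against 16.1%. DESeq2 called it (adjusted p = 0.0017), where it called 3.71% of all genes. The edgeR value without D_C 1 and ND_B12 4 was -0.54 (adjusted p = 0.063). Mafk at -0.45 (SE 0.17, adjusted p = 0.214) and Nfe2l1 at -0.25 (SE 0.10, adjusted p = 0.217) came next.

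Transcript counts showed which form carried each member. Nqo1 had 1 listed transcript, and for Gclc, Gclm, Hmox1, Srxn1 and G6pdx the canonical one held over 99% of the count. Txnrd1 was divided among 3 protein-coding transcripts, Txnrd1-206 with 51.2% of the count over all libraries, Txnrd1-208 with 29.4% and Txnrd1-201 with 15.5%, and the share of Txnrd1-201 ran from 1.96% to 82.1% between libraries, while the gene's total stayed between 11805 and 12904 normalized counts in the non-diabetic groups. In Osgin1 the largest part, 46.2%, was assigned to Osgin1-205, annotated as a retained intron, with 34.6% to 62.7% in single libraries. Keap1 was divided among Keap1-202 (38.5%), Keap1-205 (37.5%) and Keap1-201 (22.2%). The division among transcripts that share most exons is an estimate, so differences between groups in these shares are not read here.

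**Figure D4:**
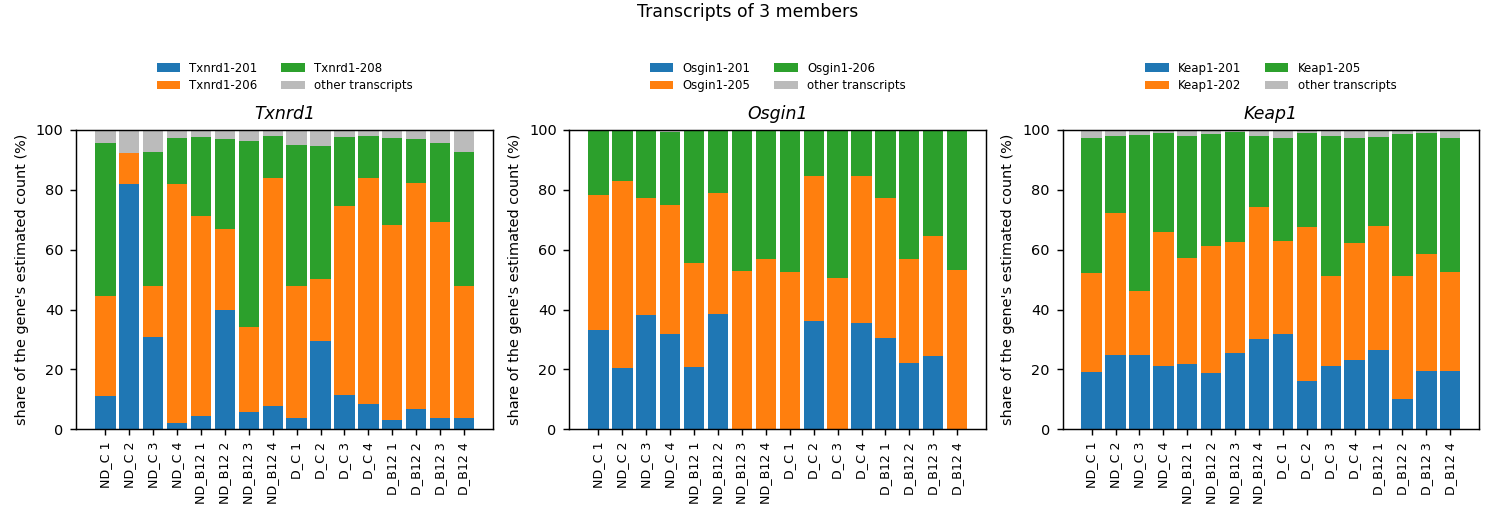
Share of the gene's estimated count (y axes, percent) assigned to each transcript of Txnrd1, Osgin1 and Keap1 in the 16 libraries (x axes), with transcripts under 5% on average joined in grey. The Txnrd1-201 share reaches 82.1% in ND_C 2 and is 1.96% in ND_C 4, and Osgin1-205 holds at least 34.6% in every library.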

How the data were processed

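Kidney RNA from 16 mice was sequenced in paired reads of 50 bases. The authors aligned reads with STAR to GRCm39 (GENCODE vM35), and deposited estimated counts per gene and per transcript made with StringTie and prepDE. The estimated counts were already whole numbers, so rounding changed nothing. The minimum for a test was a sum of 100 counts, as in the paper's methods. Tests used edgeR 4.0.16 in R 4.3.3 (glmQLFit, glmQLFTest, TMM), fitting the mean of each labelled group to all 16 libraries (12 residual degrees of freedom), and p-values were adjusted by Benjamini-Hochberg with a threshold of 0.05. Normalized counts are counts divided by DESeq2 1.42.0 size factors. Replicates are separate mice. The biological coefficient of variation, a single value for all genes, was 0.201. It measures spread between libraries of a group beyond that of counting, and mice and dates are not separated in it. In data simulated for diabetes in untreated kidneys (25113 genes, 200 changed), edgeR recovered 81 of 100 genes changed by 1 and 34 of 100 changed by 0.5 on the log2 scale, and 9 of its 124 calls were false. The changed genes were drawn from all genes above a minimum mean count, so these rates are not those of the members.

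The members and gene lists were chosen with earlier results of these data known. Named are all 10 members, the 3 other pathway genes with the smallest p in each of 7 comparisons, and for each member the 2 most alike genes by correlation of log2 CPM (prior count 2). Published group means were matched to the closest of 1820 sets of 4 libraries by the median absolute log2 difference. Same replicate numbers did not pair libraries (correlation of deviations -0.183 to 0.168, over 0.1 in 3 of 24 pairs). Alternatives were DESeq2, median-of-ratios normalization, no filter beyond 1 count, the replicate block, the label date as covariate, the compared groups alone, and libraries left out. Positions and promoter windows are from GENCODE vM39. Python 3.11.15, pandas 2.3.3, scipy 1.17.1 and matplotlib 3.10.9 were used.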

Additional observations from a re-analysis of the deposited data

Results flagged for a closer look

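In 3 of the 40 sets formed by a member and a labelled group, 1 library lay so far from the other 3 that its gap to the nearest, divided by the range of the group, exceeded Dixon's 95% critical value for 4 values. Chance alone gives about 1 in 20 such sets. Nqo1 in D_C 1 stood at 3215 normalized counts, below the other D_C libraries by 0.854 of the range. Hmox1 in D_C 2 stood at 3941 normalized counts, above the others by 0.906 of the range. Gclm in D_B12 4 stood at 24268 normalized counts, below the others by 0.918 of the range.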

How the results depend on the processing

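With all libraries, edgeR called 1 of 10 members for diabetes averaged over treatments and 0 in each of the other 6 comparisons. DESeq2 called 1 in untreated diabetes. For diabetes averaged over treatments, no filter beyond 1 count gave 0 calls, with more genes tested, as did the replicate block (0 calls, Nqo1 adjusted p = 0.059) and the label date as covariate (0 calls, Nqo1 at 0.19, adjusted p = 0.802). With that covariate 1 member, Osgin1, was called for B12 in diabetic kidneys and 1, again Osgin1, for the interaction (1.44, adjusted p = 0.0258). The replicate block changed no other call. With libraries left out, calls ranged from 0 to 2 in untreated diabetes, 0 to 1 in B12-treated diabetes and 0 to 4 averaged over treatments. The 4 were Nqo1, Txnrd1, Srxn1 and G6pdx without D_C 1, alone or with ND_B12 4. Without both, B12-treated diabetes gave 1 call. Leaving out ND_B12 4 alone gave 1 call in untreated diabetes. The call of Nqo1 was lost in 11 of 16 fits with 1 library left out. The cause was not tested in any of these.

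With the label date as covariate, 15 of the 70 fold changes of the members (10 genes in 7 comparisons) turned sign. Those printed singly were, in untreated diabetes, Nfe2l2 (0.15), Hmox1 (0.14), Srxn1 (-0.025) and Osgin1 (0.49), in B12-treated diabetes, Nqo1 (-0.015), and, averaged over treatments, Nfe2l2 (0.27) and Osgin1 (1.21). Hmox1 in untreated diabetes ranged from -0.61 (without D_C 2) to 0.01 (without D_C 1), and was 0.024 without D_C 1 and ND_B12 4. Of the wider list, no call held with the label date as covariate. With 1 library left out the calls for diabetes averaged over treatments held in 10 of 16 fits for Ephx1, 11 for Ftl1, 8 for Me1 and 4 for Cbr3. A missing call does not show that a member was unchanged. The simulated rate, 34 calls of 100 at a log2 change of 0.5, is for genes drawn from across the table and not for the members. In untreated kidneys the members' SEs ran from 0.04 (Keap1) to 0.31 (Hmox1), so the size of change that could be missed differs between them.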

Other observations

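Osgin1 and Nfe2l2 were looked at against the date in the library's label after their values had been seen. For both, the lowest count of each of the 4 groups was in a library with that group's latest date, in 4 of 4 groups. This held in 3 of 4 groups for Hmox1, Gclc and G6pdx, and in 1 or 2 of 4 for the other members. The latest date is shared by more than a single library in ND_B12 and in D_C, where such a match is easier. The highest count was in a library with the earliest date in 3 of 4 groups for Osgin1 and in 2 of 4 for Nfe2l2. The date and the replicate order run together within groups, and no test was made.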
